A study of Homo sapiens with 12 samples.

Results

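The E2F transcription factors and the retinoblastoma-type pocket proteins were followed at the RNA level in MOLM14 cells, a human line of acute myeloid leukemia. The 10 members were E2F1, E2F2, E2F3, E2F4, E2F7, E2F8, their dimer partner TFDP1, and the pocket protein genes RB1, RBL1 and RBL2. They were picked by gene symbol, with no threshold on measured values, and each matched 1 identifier among the 61487 of the count table. All 10 passed the filter on low counts and stand among the 16104 genes tested. Every library came from MOLM14 cells carrying an inducible short hairpin RNA against RIP140, the nuclear receptor corepressor encoded by NRIP1, grown with tetracycline-free serum. Libraries labelled ATRA+DOX, ATRA, DOX and untreated numbered 3 each. ATRA, all-trans retinoic acid, was given at 1 µM for 48 h, and DOX, the doxycycline that induces the hairpin, at 50 ng/mL with renewal every other day. The design text gives 48 h for the treatments together, and how long DOX was present before ATRA is not given in the sources used here. The model is 1 cell line, the controls carry the uninduced hairpin, and no library with DOX and a control hairpin was analysed here, so loss of RIP140 and exposure to DOX cannot be told apart.

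E2F factors bind promoters of genes needed for DNA replication and mitosis, mostly as dimers with a DP protein such as TFDP1. E2F1, E2F2 and E2F3 activate those genes, and the retinoblastoma protein pRB (RB1) holds them inactive until cyclin-dependent kinases phosphorylate it. E2F4 works mainly as a repressor together with p107 (RBL1) and p130 (RBL2), the pocket proteins of the DREAM complex of resting cells. E2F7 and E2F8 are atypical family members that bind DNA without a DP partner and repress E2F targets late in S phase. ATRA is known to slow division of myeloid leukemia cells while they mature.

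Library totals ran from 2.69 to 19.36 in units of 1e6 counts, and the smallest was DOX replicate 3. The share of counts on the mitochondrial ribosomal RNA genes was 1.02% to 4.6%, highest in untreated replicate 3. It was 1.02% to 2.177% in DOX against 2.538% to 4.6% in untreated libraries. ATRA+DOX libraries had 1.235% to 2.024%, against 2.087% to 2.745% in ATRA libraries. The share was thus lower with DOX in both pairs without overlap, and its part in the DOX comparisons cannot be told apart from that of DOX. DOX replicate 3 and untreated replicate 3 stood apart in these measures. Where leaving them out changed the call of a member, the value is given beside it. NRIP1 itself had 15.9, 20.9 and 19.9 CPM (counts scaled to a library of 1e6) in ATRA+DOX libraries, 38.4, 41.1 and 51.9 CPM in ATRA libraries, 19.2, 15 and 15.7 CPM in DOX libraries, and 59.7, 58.9 and 53.3 CPM in untreated libraries. It fell by 1.77 on the log2 scale in DOX against untreated cells (SE 0.135, adjusted p = 1.47e-07) and by 1.22 in ATRA+DOX against ATRA cells (SE 0.129, adjusted p = 6.49e-06). Of 10 monocytic leukemia markers, 9 had counts in all 12 libraries, among them SPI1 (173 to 290 CPM) and FLT3 (240 to 311 CPM), while CD14 was at most 0.321 CPM. The T cell marker CD3E and the epithelial marker EPCAM had 0 counts throughout, where 3 counts over all libraries would equal 0.0204 CPM. All adjusted p-values here come from edgeR's quasi-likelihood test adjusted by Benjamini-Hochberg across the genes tested; a gene is called at an adjusted p under 0.05, and log2 changes are given with their standard errors.

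Promoters of several E2F genes hold E2F-type letters themselves, and these are shown because genes with such letters did not all move together. A link between the letters and the changes was not tested. The 80 bases before the RefSeq start of 5 members are given 5′ to 3′ on the coding strand (RefSeq, GRCh38.p14), with matches to the searched E2F-type letters in capitals. The windows are E2F1 at chr20:33686386-33686465 (minus strand), E2F2 at chr1:23531234-23531313 (minus), E2F3 at chr6:20401799-20401878 (plus), RBL1 at chr20:37095998-37096077 (minus) and E2F7 at chr12:77065570-77065649 (minus).
E2F1: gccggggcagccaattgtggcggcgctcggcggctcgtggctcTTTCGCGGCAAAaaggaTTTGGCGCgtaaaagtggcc
E2F2: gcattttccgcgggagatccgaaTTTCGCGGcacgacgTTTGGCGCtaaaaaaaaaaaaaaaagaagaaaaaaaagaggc
E2F3: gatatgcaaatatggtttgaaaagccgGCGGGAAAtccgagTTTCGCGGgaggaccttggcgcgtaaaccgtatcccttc
RBL1: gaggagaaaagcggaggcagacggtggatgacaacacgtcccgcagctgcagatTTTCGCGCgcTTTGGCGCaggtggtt
E2F7: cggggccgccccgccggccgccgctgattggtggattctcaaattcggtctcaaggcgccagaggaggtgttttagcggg

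The letters searched on both strands were TTTCCCGC, TTTGCCGC, TTTCGCGC, TTTCGCGG, TTTGGCGC and TTTGGCGG. In E2F1 the match to TTTCGCGG and the reverse-strand match to TTTGCCGC overlap and were counted as 1. Windows of 300 bases, 250 before to 50 after a start, were found for 9 of the 10 members; E2F8 is named only. E2F1, E2F2, E2F3 and RBL1 each held at least 2 matches that do not overlap, and TFDP1 held 1, so 5 of 9 genes (55.6%) had a match. Among all 35116 windows, 4.3% held a match and 0.191% held at least 2. These shares count windows, whereas a member counted once if any of its windows matched. E2F4, E2F7, RBL2 and RB1 held none in their windows; the window listed for RB1 lies at an internal start of the gene. E2F3 and RBL2 have 2 windows each, and the second of E2F3 held no match. The cell cycle homology letters TTTGAA, found in 15.2% of all windows, stood in the first windows of E2F3 and RBL2. A match is a run of letters and not a measured binding site.

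**Figure D1:**
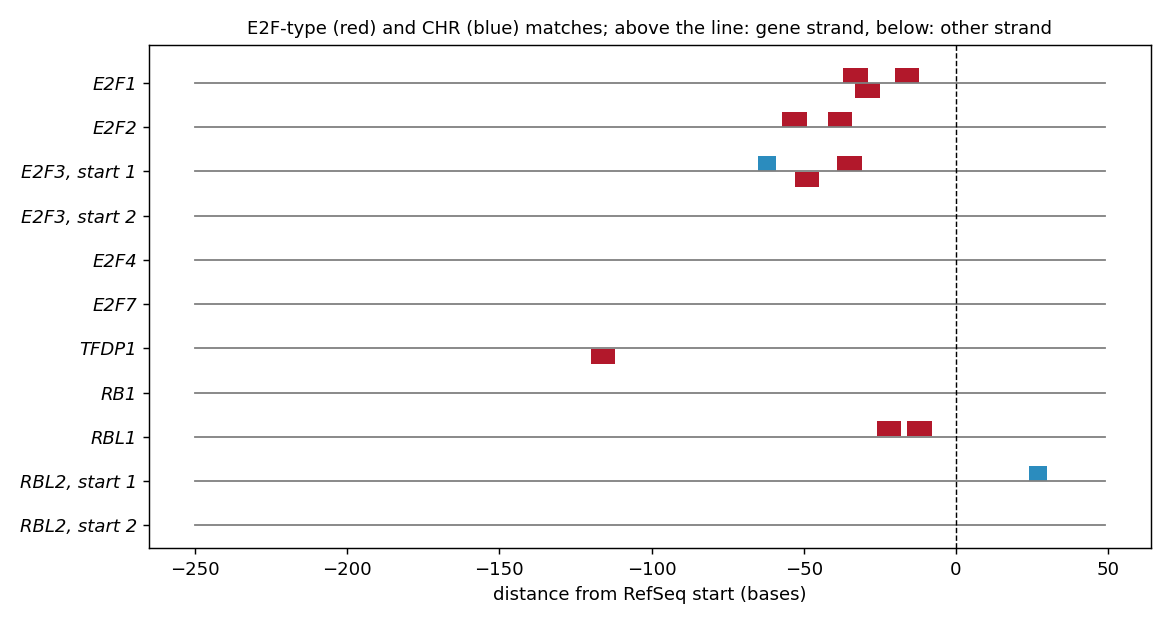
Map of searched letters in the promoter windows of the members, with distance from the RefSeq start in bases on the horizontal axis and 1 line per window. Red blocks are E2F-type matches and blue blocks cell cycle homology (CHR) matches, above the line on the gene's strand and below it on the other; E2F1, E2F2, E2F3 and RBL1 carry at least 2 E2F-type matches, and E2F4, E2F7, RB1 and RBL2 carry none.

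Levels of different genes were compared as CPM per kb of exon. In untreated cells TFDP1 stood first at 106 CPM per kb, followed by E2F4 at 25.8, RB1 and E2F1 at 15.8 each, RBL2 at 13.9, E2F8 at 13.2, E2F3 at 12.5, RBL1 at 7.47, E2F7 at 4.17 and E2F2 at 3.15. The libraries of RB1 overlapped those of E2F1, RBL2, E2F8 and E2F3, and those of RBL2, E2F8 and E2F3 overlapped each other. These genes are thus not ordered beyond their spread, except that E2F1 lay above RBL2, E2F8 and E2F3. In ATRA cells the order was TFDP1 at 93.6 CPM per kb, E2F4 at 28.1, RB1 at 17.5, RBL2 at 13.8, E2F3 at 11.6, E2F1 at 10.6, RBL1 at 7.28, E2F8 at 4.58, E2F7 at 3.17 and E2F2 at 1.76. ATRA+DOX cells had the same order as ATRA cells, with only E2F3 and E2F1 overlapping in either group. By mean level E2F8 thus had rank 6 among the members in DOX and untreated cells, within the spread of RBL2 and E2F3. It stood below RBL1, at rank 8, in both groups that received ATRA. In DOX cells TFDP1 had 108 CPM per kb and E2F2 again stood last at 2.92, within the spread of E2F7 at 3.02.

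**Figure D2:**
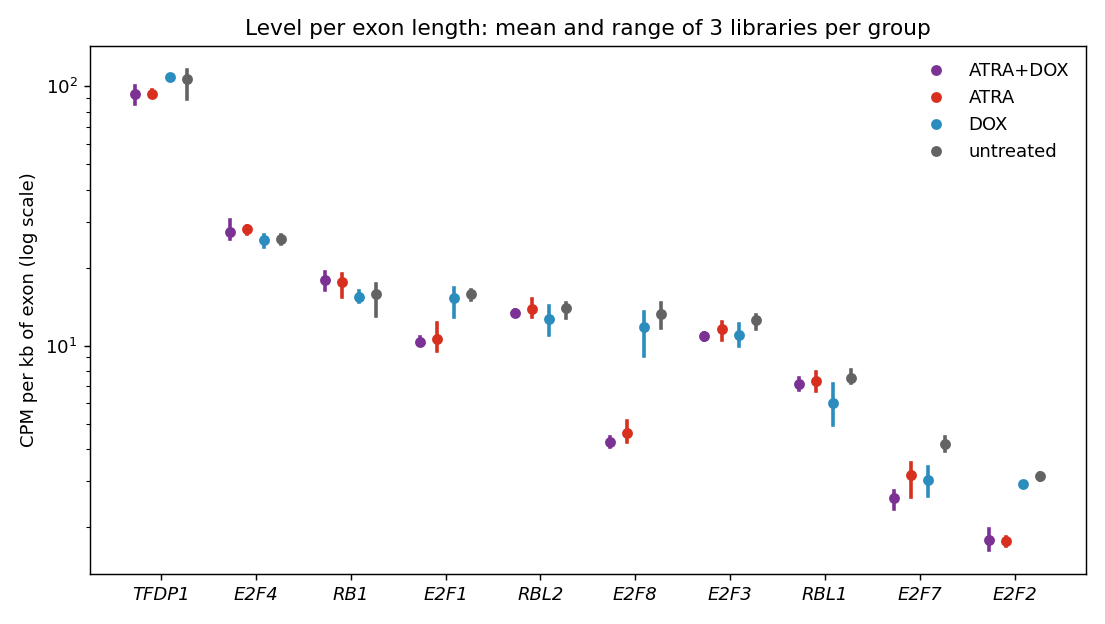
Mean level of the 10 members in CPM per kb of exon, on a log axis, for the 4 groups of 3 libraries with their ranges. TFDP1 lies between 93.2 and 108 in all groups, and E2F8 lies near 4 with ATRA and above 11 without it.

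With ATRA, 4 of the 10 members fell and 0 rose against untreated cells. E2F8 moved most, to 0.347 of the untreated level, followed by E2F2, E2F1 and E2F7, whereas E2F3, E2F4, TFDP1 and the 3 pocket protein genes did not pass the test. Among all genes tested, 13.2% were called lower in ATRA against untreated cells and 28.9% in either direction. The median log2 change was -0.15 over the members and -0.02 over all genes. When ATRA was added to DOX, with other libraries on both sides, 3 of 10 members were called, all lower and again E2F8, E2F2 and E2F1, where 8.24% of all genes were called lower and 19% in either direction. In bulk RNA, a smaller share of cells in the phase that expresses a gene and less of its RNA per cell cannot be told apart.

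**Figure D3:**
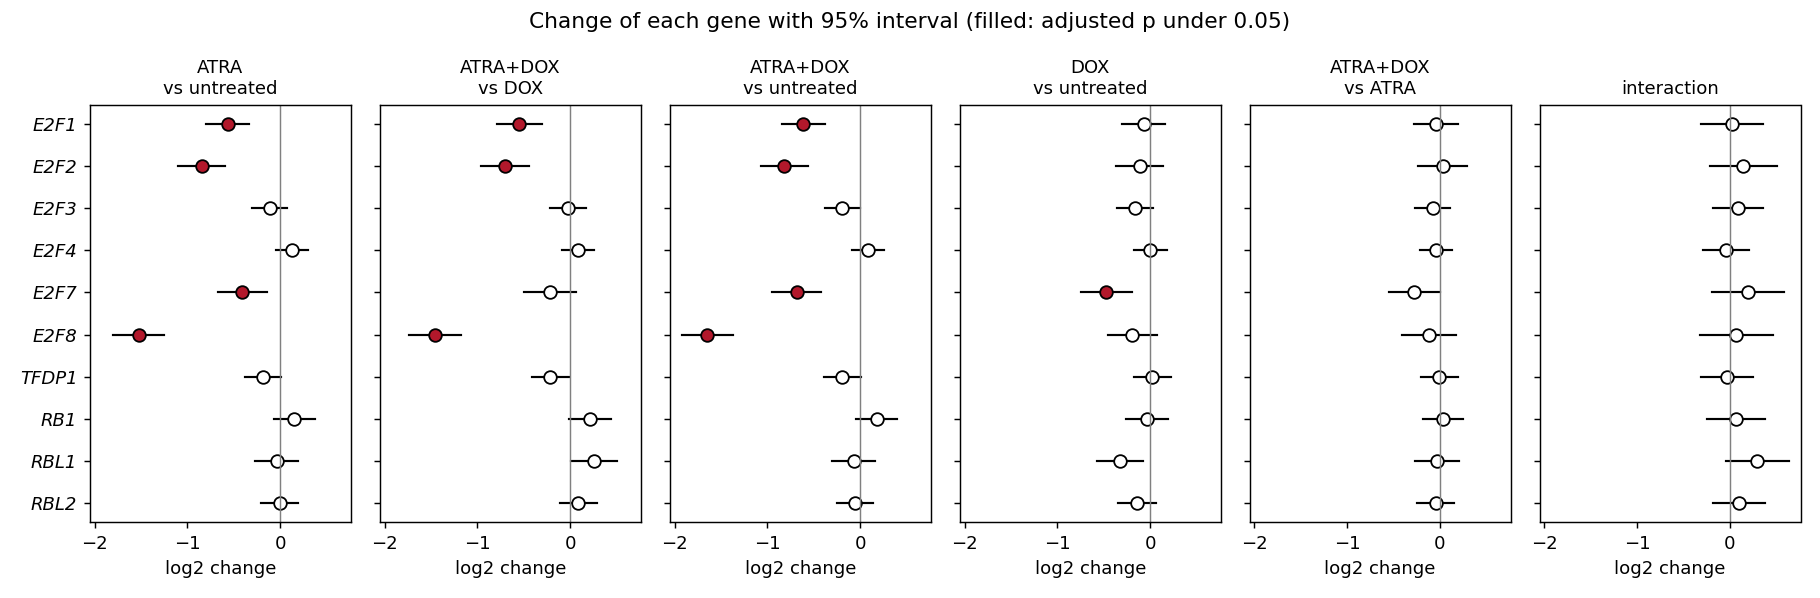
Log2 change of each member with its 95% interval in the comparisons of the design, with filled points for called genes. E2F8, E2F2 and E2F1 lie below 0 in each comparison with ATRA on 1 side only, and the intervals of the interaction include 0 for all 10 members.

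Of the activators, E2F1 had 25.4, 26.9 and 25.3 CPM in ATRA+DOX libraries, 30.5, 23.8 and 25.3 CPM in ATRA libraries, 32.2, 41.7 and 40.3 CPM in DOX libraries, and 37.6, 39.9 and 41.0 CPM in untreated libraries. All 6 libraries with ATRA were below all 6 without it, the nearest being ATRA replicate 1 and DOX replicate 1. E2F1 fell by 0.57 ± 0.111 in ATRA against untreated cells (adjusted p = 0.000521) and by 0.55 ± 0.115 in ATRA+DOX against DOX cells (adjusted p = 0.00162). E2F2, which had the lowest mean level per length of the members, was at 10.6, 9.55 and 8.89 CPM in ATRA+DOX libraries and 9.15, 9.99 and 9.64 CPM in ATRA libraries, against 15.8, 15.9 and 16.1 CPM in DOX libraries and 17.6, 16.5 and 17.5 CPM in untreated libraries. The ATRA libraries formed a separate low set, and the DOX libraries lay just under the untreated ones. E2F2 fell by 0.85 ± 0.121 in ATRA against untreated cells (adjusted p = 1.55e-05) and by 0.70 ± 0.125 in ATRA+DOX against DOX cells (adjusted p = 0.000309). DOX against untreated gave -0.11 for E2F2, with an interval of -0.36 to 0.14 and an adjusted p of 0.551. Both genes were called in all 14 alternative analyses of each of these ATRA comparisons.

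E2F3, the third activator, had 57.2, 57.6 and 54.3 CPM in ATRA+DOX libraries, 54.1, 63.5 and 61.7 CPM in ATRA libraries, 62.7, 55.9 and 51.5 CPM in DOX libraries, and 67.8, 65.9 and 59.9 CPM in untreated libraries. The ATRA and untreated ranges overlapped. Its change in ATRA against untreated cells was -0.11 ± 0.0903 (adjusted p = 0.378), with an interval of -0.30 to 0.08 that does not reach the change of E2F1. The ATRA+DOX libraries were all below the untreated ones, at -0.19 with an adjusted p of 0.101. The deposited count sums both starts of E2F3, so the transcript behind the promoter shown above cannot be told apart from the other.

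**Figure D4:**
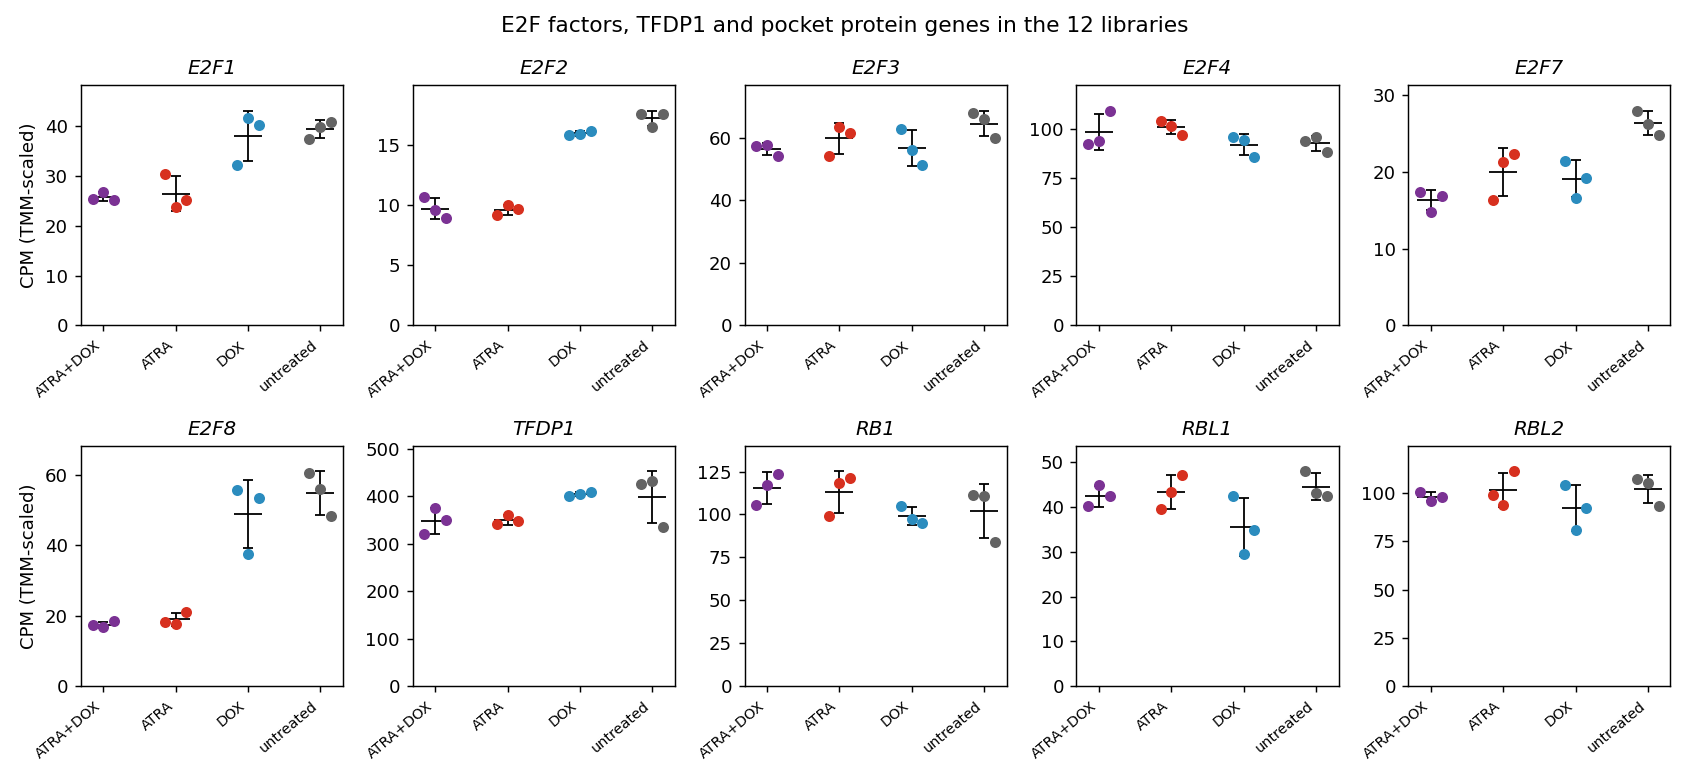
Scaled CPM of each member in every library by group (ATRA+DOX, ATRA, DOX, untreated), with bars for the mean and SD of 3 libraries. E2F1, E2F2 and E2F8 separate libraries with and without ATRA, E2F7 is highest in untreated libraries, and the groups of the other members lie close together.

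The atypical members E2F7 and E2F8 differed in their pattern over the groups. E2F8 had 17.3, 16.8 and 18.4 CPM in ATRA+DOX libraries and 18.3, 17.5 and 21.1 CPM in ATRA libraries, against 55.6, 37.7 and 53.4 CPM in DOX libraries and 60.4, 55.9 and 48.3 CPM in untreated libraries. The 6 libraries with ATRA kept within 16.8 and 21.1 CPM, and the lowest of the others, DOX replicate 2, was at 37.7 CPM. E2F8 fell by 1.53 ± 0.132 in ATRA against untreated cells (adjusted p = 1.15e-08), by 1.65 ± 0.132 in ATRA+DOX against untreated cells (adjusted p = 4.11e-09) and by 1.46 ± 0.136 in ATRA+DOX against DOX cells (adjusted p = 6.38e-08). Over the 14 alternatives the first of these ran from -1.62 to -1.45. DOX against untreated gave -0.19 (adjusted p = 0.316).

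E2F7 had 17.3, 14.8 and 16.8 CPM in ATRA+DOX libraries, 16.3, 21.2 and 22.3 CPM in ATRA libraries, 21.4, 16.6 and 19.2 CPM in DOX libraries, and 27.9, 26.2 and 24.8 CPM in untreated libraries. The untreated libraries were above all others, and the 3 treated groups overlapped. E2F7 fell by 0.69 ± 0.128 in ATRA+DOX against untreated cells (adjusted p = 0.000293), by 0.41 ± 0.127 in ATRA against untreated cells (adjusted p = 0.0196) and by 0.47 ± 0.132 in DOX against untreated cells (adjusted p = 0.0224). The ATRA call was lost with all libraries thinned to equal depth (-0.17, adjusted p = 0.523), without ATRA replicate 1 (-0.26, adjusted p = 0.173) and without untreated replicate 1 (-0.36, adjusted p = 0.0717). The DOX call was lost in 6 of 14 alternatives, among them a term for mitochondrial ribosomal RNA (-0.32, adjusted p = 0.679), equal depth (-0.32, adjusted p = 0.26) and leaving out DOX replicate 2 (-0.34, adjusted p = 0.193), untreated replicate 1 (-0.41, adjusted p = 0.0692) or untreated replicate 3 (-0.51, adjusted p = 0.0515). It was also lost without replicate 3 of both groups (-0.51, adjusted p = 0.105). The log2 ratio of E2F8 to E2F7 counts within a library lay between -0.28 and 0.18 in the 6 libraries with ATRA and between 0.96 and 1.47 in the 6 without. E2F8 counts exceeded E2F7 counts in every library without ATRA and were near them in every library with it. These counts are not scaled by exon length. In CPM per kb of exon, E2F8 stayed above E2F7 without overlap in both groups with ATRA. Mean levels were 4.58 against 3.17 in ATRA cells and 4.22 against 2.59 in ATRA+DOX cells. This pair was set side by side after its values were seen, so no test is given.

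E2F4, mainly a repressor, had 92.3, 93.5 and 109 CPM in ATRA+DOX libraries and 104, 101 and 96.9 CPM in ATRA libraries. It had 95.8, 94.3 and 85.6 CPM in DOX libraries and 93.6, 95.6 and 88.3 CPM in untreated libraries. The ATRA libraries lay just above the untreated ones, at 0.12 ± 0.0827 (adjusted p = 0.276). TFDP1, the dimer partner of the E2F proteins other than E2F7 and E2F8, had 320, 376 and 350 CPM in ATRA+DOX libraries, 341, 361 and 349 CPM in ATRA libraries, 401, 405 and 409 CPM in DOX libraries, and 426, 433 and 335 CPM in untreated libraries. Untreated replicate 3 fell among the libraries with ATRA, while the other untreated and all DOX libraries were above them. TFDP1 was at -0.18 ± 0.0949 in ATRA against untreated cells (adjusted p = 0.154), and was called at -0.30 (adjusted p = 0.0238) without untreated replicate 3. Against untreated cells it was at -0.19 in ATRA+DOX cells (adjusted p = 0.118), and at -0.30 (adjusted p = 0.0195) without that library. With ATRA added to DOX it was at -0.22 (adjusted p = 0.128).

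No pocket protein gene passed the test in any comparison. RB1 had 106, 117 and 124 CPM in ATRA+DOX libraries, 99.1, 118 and 121 CPM in ATRA libraries, 105, 97.2 and 94.8 CPM in DOX libraries, and 112, 111 and 83.9 CPM in untreated libraries. The groups overlapped except that ATRA+DOX lay above DOX, by 0.21 with an adjusted p of 0.19. In ATRA against untreated cells RB1 was at 0.15, with an interval of -0.07 to 0.37. RBL2, the gene of p130, had 101, 96.0 and 97.7 CPM in ATRA+DOX libraries, 99.0, 93.9 and 111 CPM in ATRA libraries, 104, 80.7 and 92.1 CPM in DOX libraries, and 107, 105 and 93.5 CPM in untreated libraries. All 4 groups overlapped, and the interval for ATRA against untreated was -0.20 to 0.19. Exons on the opposite strand overlap 9.85% and 8.33% of the exon bases of RBL2, 3.54% of those of RBL1 and 0.169% of those of E2F8, and reads there cannot be told apart because the strand setting of the counting is not given.

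RBL1, the gene of p107, had 40.1, 44.8 and 42.4 CPM in ATRA+DOX libraries, 39.6, 43.2 and 47.2 CPM in ATRA libraries, 42.3, 29.5 and 34.9 CPM in DOX libraries, and 47.9, 43.1 and 42.5 CPM in untreated libraries. DOX replicates 2 and 3 were the lowest of the 12, and DOX replicate 1 lay among the other groups. Against untreated cells RBL1 was at -0.04 in ATRA cells (adjusted p = 0.834) and at -0.32 ± 0.118 in DOX cells (adjusted p = 0.0664). Without DOX replicate 1 it was called in DOX against untreated cells, at -0.51 (adjusted p = 0.00239), and in ATRA+DOX against DOX cells, at 0.45 (adjusted p = 0.00597). The ratio of RBL1 to E2F1 counts, on the log2 scale, ran from 0.38 to 0.90 in the libraries with ATRA and from -0.50 to 0.39 in those without, a pair also chosen after its values were seen.

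In DOX against untreated cells, which asks what hairpin induction did without ATRA, 1 of 10 members was called, E2F7, where 7.1% of all genes were called lower and 15.2% in either direction. Libraries did not overlap for 3 members, E2F2, E2F7 and RBL1, all lower in DOX, where 13.9% of all genes lay lower without overlap. In ATRA+DOX against untreated cells the called members were E2F1, E2F2, E2F7 and E2F8, all lower, where 18.5% of all genes were called lower and 38% in either direction. E2F1 was at -0.61 and E2F2 at -0.82 there. These comparisons and that of ATRA share the untreated libraries, so their values are given side by side and not as separate support. In ATRA+DOX against ATRA cells, which asks what induction added to ATRA, 0 of 10 members were called by edgeR or by DESeq2, and 4.43% of all genes were by edgeR. E2F7 was the member farthest from 0, at -0.28 ± 0.131 with an adjusted p of 0.257, and it was the 1 member with an unadjusted p under 0.05 (0.0466), where 19% of all genes had one. The interaction, which subtracts the ATRA effect seen without DOX from the one seen with it, called 0 members with edgeR or DESeq2 and 0.267% of all genes with edgeR; 0 members had an unadjusted p under 0.05, where 10.8% of all genes did. Member values ran from -0.04 to 0.29, and all 10 intervals included 0. For E2F8 that interval was -0.33 to 0.46 and for E2F1 -0.31 to 0.35. Differences in the ATRA effect within those ranges are not excluded. The interaction value of RBL1 was 0.29, with an interval of -0.05 to 0.63.

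The other genes of the pathway were read as lists. Of 35 S-phase targets of E2F, 23 fell and 0 rose in ATRA against untreated cells, where 13.2% of all genes were called lower. Their median change was -0.31 on the log2 scale. UHRF1, a reader of hemimethylated DNA, fell by 0.79 ± 0.0818 (adjusted p = 1.86e-07), CDCA7 by 0.80 (adjusted p = 1.99e-07), the replication licensing factor CDT1 by 0.61 (adjusted p = 5.64e-05) and the DNA polymerase alpha subunit POLA1 by 0.49 (adjusted p = 0.000111). The count was 15 with no filter on low counts and 14 without untreated replicate 1. The combination against untreated gave 23 lower and 0 higher, where 18.5% of all genes were called lower. It gave 13 without ATRA+DOX replicate 1 and 15 without untreated replicate 1 or with no filter. When ATRA was added to DOX, 5 of 35 fell, including CDCA7 (-0.52), CDT1 (-0.46) and UHRF1 (-0.29), where 8.24% of all genes were called lower. That count was 14 without DOX replicate 1 and 2 without DOX replicate 2, without ATRA+DOX replicate 1 or with no filter. In DOX against untreated cells 5 fell, among them POLA1 (-0.62) and the repair gene BRCA1 (-0.45), where 7.1% of all genes were called lower. That number was 0 with the mitochondrial term, 1 without DOX and untreated replicates 3, and 8 scaled by library size alone. It was 3 without DOX replicate 3 or untreated replicate 1.

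E2F-type letters stood in a window of 22 of the 31 S-phase targets that had one (71%). They stood in 3 of the 23 G2/M targets of DREAM with a window (13%), while TTTGAA stood in 17 of those 23 (73.9%) and in 1 S-phase target. Each gene counted once if any of its windows matched. Over all windows, counted singly, 4.3% held E2F-type letters and 15.2% held TTTGAA. Of 27 G2/M targets tested, 10 fell and 0 rose in ATRA against untreated cells, with a median of -0.25. Among all genes 13.2% were called lower there. The kinetochore proteins CENPF (-0.51) and CENPE (-0.54), the mitotic cyclin CCNB2 (-0.43) and the proliferation marker MKI67 (-0.47) were among the G2/M targets that fell. The count was 6 with no filter or without untreated replicate 1 and 17 with the mitochondrial term. ATRA+DOX against untreated gave 13 lower, where 18.5% of all genes were called lower. With ATRA added to DOX 4 fell, where 8.24% of all genes were called lower. It was 7 without DOX replicate 1 and 2 without DOX replicate 2. In DOX against untreated cells 3 fell, CENPF, ASPM and MKI67, where 7.1% of all genes were called lower. It was 0 with the mitochondrial term, 1 without both replicates 3 and 5 without DOX replicate 1 or scaled by library size alone. In ATRA+DOX against ATRA cells 1 S-phase target rose, CDCA7 (0.32, adjusted p = 0.0321), and 1 G2/M target fell, the spindle protein ASPM (-0.44, adjusted p = 0.00872). These calls were lost in 7 of 14 alternatives for CDCA7 and in 2 of 14 for ASPM. In that comparison 1.89% of all genes were called higher and 2.54% lower. None of the genes of these 2 lists passed the interaction test, where 0.267% of all genes did.

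**Figure D5:**
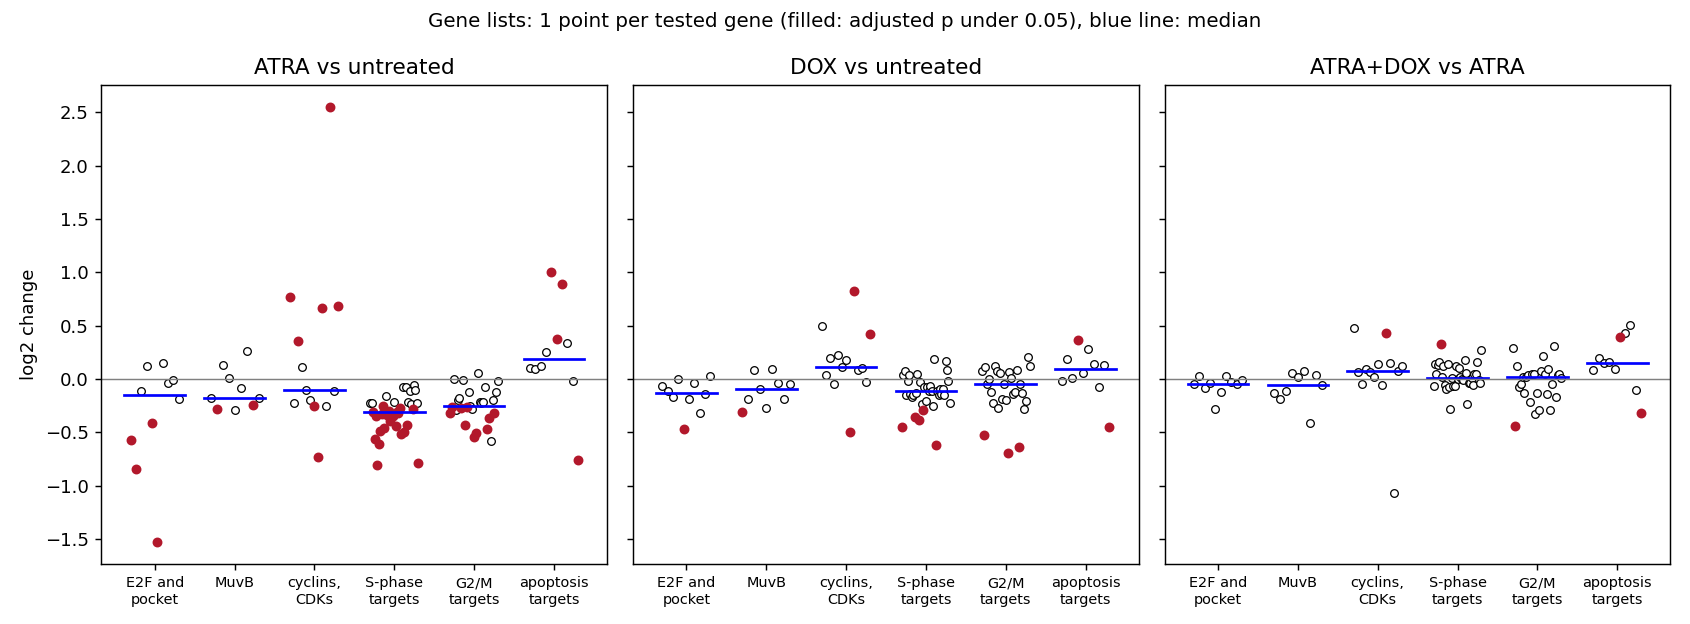
Log2 changes (vertical axis) of the genes of each list, 1 point per tested gene, for ATRA against untreated, DOX against untreated and ATRA+DOX against ATRA, with filled points for called genes, a blue line at the list's median and a grey line at 0. For ATRA against untreated the medians of the S-phase and G2/M targets are -0.31 and -0.25, and called genes of the cyclin and kinase list lie on both sides of 0.

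Upstream of the pocket proteins, 7 of 13 tested cyclins, kinases and inhibitors passed the test in ATRA against untreated cells, 5 higher and 2 lower. Among all genes 28.9% passed it in either direction. CDK6, a kinase that phosphorylates pRB, averaged 287 ± 23.9 CPM in ATRA and 475 ± 8.74 CPM in untreated libraries (SD, n = 3 each) and fell by 0.73 (edgeR adjusted p = 2.53e-05). Its relative CDK4 fell by 0.25 (adjusted p = 0.038), a call lost in 7 of 14 alternatives, among them leaving out untreated replicate 3 (-0.26, adjusted p = 0.0718). CDKN1A, the kinase inhibitor p21, averaged 385 ± 22.8 CPM in ATRA and 243 ± 12.6 CPM in untreated libraries (SD, n = 3 each) and rose by 0.66 (edgeR adjusted p = 4.93e-06). The inhibitors CDKN1C and CDKN2D rose by 2.55 and 0.69, and the cyclins CCND1 and CCND3 by 0.77 and 0.36. CDKN1C rests on few counts, 20 to 43 in ATRA against 3 to 10 in untreated libraries.

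In DOX against untreated cells CDKN1A averaged 432 ± 35.4 CPM in DOX and 243 ± 12.6 CPM in untreated libraries (SD, n = 3 each) and rose by 0.83 (edgeR adjusted p = 2.68e-05). CDKN2D rose by 0.42 and CDK6 fell by 0.50. The CDKN2D call was lost in 6 of 14 alternatives, among them leaving out DOX replicate 3 (0.39, adjusted p = 0.0627), untreated replicate 2 (0.40, adjusted p = 0.074) or untreated replicate 3 (0.44, adjusted p = 0.0772). The CDK6 call was lost in 2 of 14, with the mitochondrial term (-0.20, adjusted p = 0.719) and without replicate 3 of both groups (-0.44, adjusted p = 0.102). CDKN1A was also called in ATRA+DOX against ATRA cells, higher by 0.43 (adjusted p = 0.00513). That call was lost without ATRA replicate 3 (0.38, adjusted p = 0.0556). E2F1, E2F2 and E2F8 were not called in that comparison, and a link between them and CDKN1A was not tested. With ATRA on top of DOX 4 of the list rose and 2 fell, where 19% of all genes were called in either direction. In 7 of the alternatives 1 to 3 of the list were called. CDKN2A, the gene of p16 and ARF, had 0 counts in all 12 libraries, and CDKN2B had 1 count in all.

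The MuvB core joins the pocket proteins in DREAM, and its partners MYBL2 and FOXM1 replace them in dividing cells. Of this list 2 of 9 genes fell in ATRA against untreated cells, where 13.2% of all genes were called lower. FOXM1 was lower by 0.28 (adjusted p = 0.0323) and MYBL2 by 0.25 (adjusted p = 0.0423), and 0 of 9 passed without ATRA replicate 1, without untreated replicate 1 or 3, or with no filter, while 1 passed without any 1 of the other ATRA and untreated libraries. The combination against untreated gave 3 lower, with FOXM1 at -0.47 (adjusted p = 0.00076), where 18.5% of all genes were called lower. With no filter or without ATRA+DOX replicate 2, 1 of the list was called. DYRK1A, the kinase that helps assemble DREAM, was the 1 gene called in DOX against untreated cells (-0.31, adjusted p = 0.0331). The DYRK1A call was lost in 11 of 14 alternatives, and 15.2% of all genes were called in that comparison. Among the remaining family genes, E2F5, E2F6 and TFDP2 were tested and TFDP3 had 0 counts. TFDP2 was called once, at -0.43 in ATRA+DOX against DOX cells (adjusted p = 0.0441; lost in 10 of 14 alternatives), and E2F5 and E2F6 were at -0.12 and -0.24 in ATRA against untreated cells without a call.

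Of 10 genes described as apoptotic targets of E2F1, 3 rose and 1 fell in ATRA against untreated cells, where 28.9% of all genes were called in either direction. Among them the caspase gene CASP8 rose by 0.38 (adjusted p = 0.0096) and the BH3 protein gene HRK by 0.89 (adjusted p = 0.0105), while TP73, a p53 relative, fell by 0.76 (adjusted p = 6.7e-07). The count of 4 was 2 at equal depth, and the CASP8 call was lost in 4 of 14 alternatives, among them leaving out untreated replicate 3 (0.31, adjusted p = 0.0649). ATRA added to DOX gave 4 higher and 1 lower, with TP73 at -0.63, where 19% of all genes were called in either direction. Without DOX replicate 1, 8 passed. Against untreated cells 6 rose and 1 fell in ATRA+DOX cells, where 38% of all genes were called in either direction. In ATRA+DOX against ATRA cells 1 rose, CASP8 (0.40, adjusted p = 0.0298), and 1 fell, TP73 (-0.32, adjusted p = 0.0468). These calls were lost in 7 and 13 of 14 alternatives, and 4.43% of all genes were called there in either direction.

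The genes whose profile over the 12 libraries was nearest to that of a called member were found by the root mean square difference of centred log2 CPM, with 11947 genes compared. For E2F1 they were RABGGTB (0.105), CDT1 (0.106) and C19orf48P (0.111), where the median of all genes was 0.367. For E2F2 they were GPT2 (0.0815), UHRF2 (0.0832) and CD44 (0.0887), with a median of 0.44. For E2F7 they were C18orf54 (0.11), TMED8 (0.12) and ATAD5 (0.128), with a median of 0.359. For E2F8 they were TRIM9 (0.174), FOSL2 (0.194) and POU3F2 (0.205), with a median of 0.788. CDT1 and ATAD5 act in DNA replication, and the other nearest genes, including all those of E2F2 and E2F8, were not sorted by function. The libraries compared share their depth and scaling.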

How the data were processed

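Gene counts were deposited by the authors as whole-number, unnormalized counts in 1 table of 12 libraries, with 23 empty columns and 0 columns with values lacking a sample. The tools named in the submitters' processing notes are STAR, HTSeq and FastQC, and the build is GRCh38; versions, annotation and strand setting are not given in the sources used here. Symbols were found for 61369 of 61487 identifiers. Libraries were grouped from the labels. With edgeR 4.0.16 in R 4.3.3, 16104 genes passed filterByExpr, scaling was by TMM, and all contrasts came from 1 quasi-likelihood fit of the group means, with Benjamini-Hochberg adjustment over all genes and a threshold of 0.05. CPM values are TMM-scaled. Standard errors follow from the F statistic and intervals are 95%. Exon lengths came from GENCODE 29 and promoters from RefSeq. The labels state that replicates are biological, without naming cultures. Same-numbered libraries deviated together in 4 of 18 pairs (correlation above 0.1), so numbers were not taken as pairing. The fits were tested on simulated data. Totals of 2.69 to 19.36 in units of 1e6 counts limit precision most in DOX replicate 3.

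All 10 members are named in every contrast, with up to 4 called genes a list and contrast by smallest adjusted p, every gene of the family, MuvB and kinase lists where it bears on a count, and 3 nearest profiles per called member (mean of at least 2 CPM). Members and lists were chosen with earlier results of these data known. Alternatives were DESeq2 1.42.0, library size scaling, no filter, a replicate block, equal depth, a mitochondrial term, only the groups compared, and leaving out libraries. Within-library ratios were added after the values were seen.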

Additional observations from a re-analysis of the deposited data

How the results depend on the processing

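E2F1, E2F2 and E2F8 stayed called in all 14 alternatives of the 3 comparisons that called them, and E2F7 in all 14 for ATRA+DOX against untreated. E2F7 kept its direction but lost its call in 3 and 6 of 14 for ATRA and for DOX against untreated. No called value changed sign. The cause of the moves below was not tested. At equal depth, called genes numbered 2676 for ATRA against untreated, 1124 for DOX against untreated, 3392 for ATRA+DOX against untreated, 364 for ATRA+DOX against ATRA, 1860 for ATRA+DOX against DOX and 17 for the interaction, against 4652, 2446, 6123, 713, 3054 and 43 at full depth. With the mitochondrial term, 77 were called for DOX against untreated and 3363 for ATRA+DOX against untreated. For DOX against untreated, 1573 were called with those groups alone and 169 without replicate 3 of both. The interaction called 120 with DESeq2, 24 with library size scaling, 189 with no filter and 9 without replicate 3 of untreated and DOX. Leaving out 1 library in turn gave 659 (without DOX replicate 2) to 4326 (without DOX replicate 1) genes for DOX against untreated, 264 (without ATRA replicate 3) to 907 (without ATRA+DOX replicate 1) for ATRA+DOX against ATRA, and 10 (without ATRA replicate 3) to 747 (without DOX replicate 1) for the interaction.

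Members called for DOX against untreated numbered 0 at equal depth, 0 with the mitochondrial term, 0 without replicate 3 of both groups, and 0 to 2 leaving out 1 library. The replicate block called 4677 genes for ATRA against untreated, 2349 for DOX against untreated and 54 for the interaction, and changed the call of no member. It was 1 of 13 alternatives that lost TP73 in ATRA+DOX against ATRA (adjusted p = 0.061), and it added CDK1 in ATRA against untreated and FOXM1 in ATRA+DOX against DOX. Same-numbered libraries correlated between -0.24 and 0.27. Of the single-gene values, 4679 stayed on their side of the threshold, 233 lost a call and 63 gained one.

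Depth limits DOX replicate 3 most among the libraries: E2F2 rests on 42 counts there. A count of 0 and the 95% intervals cover sampling and library spread only, in 3 libraries a group. No run with a control hairpin, protein or cell cycle measure was analysed here.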
